A study of Mus musculus with 49 samples.

Results

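Of the 23992 gene symbols with deposited values, 9 are described here, each with 1 RefSeq transcript. They are the chemokines *Ccl3*, *Ccl4*, *Ccl5*, and *Xcl1* and the chemokine receptors *Cxcr3*, *Cxcr4*, *Cxcr6*, *Ccr2*, and *Ccr8*, chosen by symbol. RNA was measured by RNA-seq in CD8+ T cells, the killer T cells, purified from mouse spleens. The *Stat5a* KI mice were homozygous for Y694F in STAT5A and the *Stat5b* KI mice for Y699F in STAT5B, and the donor oligonucleotides carried further silent changes. Both replace the tyrosine that is phosphorylated when IL-2 activates these transcription factors, in every cell of the mouse and not only in T cells. WT cells of each line came from littermates of the KI mice. The mice were made by CRISPR in zygotes of B6D2F1 mice and backcrossed to C57BL/6J, were of both sexes, and were 8 to 24 weeks old. Cells of each line and genotype were taken before culture (0 hr) or after 4, 24, or 48 hr with 500 IU/ml of recombinant human IL-2, which gives 16 groups. No group used here was cultured for the same time without IL-2, so that effects of IL-2 and of time in culture cannot be told apart, and changes with IL-2 below are changes from 0 hr. Each group has 3 libraries, except *Stat5a* KI at 4 hr, for which 2 are used. The question asked of the 9 genes is how IL-2 changes them and how far that change depends on the tyrosine of either STAT5 protein.

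Libraries held 17369112 to 60200653 reads on the transcripts used (median of 41410666). The one not used, replicate 3 of *Stat5a* KI at 4 hr, held 1028515 such reads, which were 5.68% of its mapped reads. A second library stood apart. In replicate 2 of *Stat5a* WT at 4 hr 44.86% of the mapped reads lay on these transcripts, against a median of 75.29% over the libraries used. Levels are given as RPKM, which is read number corrected for transcript length and library size, and 7 of the 9 genes had the lowest RPKM of their group in that library, while the tests on counts scaled the libraries to each other. The mutations change an amino acid and are not visible in these counts, so the genotypes could not be checked. The purified cells carried the RNA of CD8+ T cells in every library. *Cd8b1*, a chain of the CD8 co-receptor, averaged 349.5 RPKM, and the 5 CD8 T cell markers summed to between 584.8 and 1667 RPKM. The labels do not say whether the libraries of a group came from separate mice, and p-values measure the spread between these libraries. In bulk RNA, a lower level per cell and fewer cells that hold the transcript cannot be told apart.

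Chemokines are small secreted proteins that guide cells through tissue, and their receptors are coupled to G proteins. CCL3 and CCL4 are made by activated CD8+ T cells, NK cells, and macrophages. CCL5 is abundant in memory CD8+ T cells. XCL1 attracts the dendritic cells that bear XCR1. CXCR3 leads effector T cells to CXCL9 and CXCL10. CXCR4 binds CXCL12 and holds lymphocytes in bone marrow and lymphoid tissue. CXCR6 binds CXCL16 and is known on T cells that stay in tissues. CCR2 binds CCL2 and is known on monocytes and on effector T cells. CCR8 binds CCL1 and is known on regulatory and skin-homing T cells.

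In GRCm38, the build of the files, the 3 CC chemokine genes lie together on chromosome 11, with *Ccl5* at chr11:83525778-83530518 and *Ccl3* at chr11:83647843-83649378, both on the minus strand, and *Ccl4* at chr11:83662584-83664683 on the plus strand. The transcripts of *Ccl3* and *Ccl4* are 13.2 kb apart, and each of the 3 genes has 3 exons. The paper places *Stat5a* and *Stat5b* on chromosome 11 too. Whether sequence of the B6D2F1 zygotes near the edited sites remained in KI mice was not tested. *Xcl1* (chr1:164931644-164935522, minus strand, 3 exons) shares chromosome 1 with *Cxcr4* (chr1:128588199-128592299, minus strand, 2 exons) at a distance of 36.3 Mb. *Cxcr6* (chr9:123806477-123811754, 2 exons) and *Ccr2* (chr9:124102183-124109140, 3 exons) are 290 kb apart on the plus strand of chromosome 9, which also holds *Ccr8* (chr9:120092133-120094906, plus strand, 2 exons). *Cxcr3* lies at chrX:101731535-101734147 on the minus strand, with 2 exons. RefSeq places *Fyco1* across *Cxcr6* on the other strand and *Gm32650* across *Ccl5*, and the whole gene *Ccl4*, with a predicted isoform that starts inside *Ccl3*, overlaps *Ccl3* on the other strand, although the transcripts counted for the pair do not overlap. Since the use of strand in counting is not given in the sources used here, reads of overlapping genes cannot be told apart.

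Promoters of 7 of the 9 genes were found in the RefSeq table for GRCm38.p6, all but *Ccl4* and *Ccl5*. The 250 bases before the start site were searched on both strands for TTCNNNGAA, the GAS motif that STAT5 dimers bind, for TGANTCA, an AP-1 motif, for TGTGGT, a RUNX motif, and for GGAAA, the core of NFAT motifs. None of the 7 windows holds TTCNNNGAA or TGANTCA, which 7.02% and 6.75% of the 32851 promoters of that length hold. TGTGGT is in 4 of the 7 and in 14% of all promoters, and GGAAA is in 5 of the 7 and in 55.6% of all. These short windows leave out distal elements, and a match is a run of letters and not a bound site. Shown are the windows of *Ccl3* and *Xcl1*, whose transcripts were lower in KI cells at 24 hr in both lines, and of *Cxcr6*, whose transcript was higher in KI cells at 48 hr, 5′ to 3′ on the strand of the gene, with TGTGGT and GGAAA or their complements in capitals. They span chr11:83649379-83649628, chr1:164935523-164935772, and chr9:123806227-123806476.

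Ccl3: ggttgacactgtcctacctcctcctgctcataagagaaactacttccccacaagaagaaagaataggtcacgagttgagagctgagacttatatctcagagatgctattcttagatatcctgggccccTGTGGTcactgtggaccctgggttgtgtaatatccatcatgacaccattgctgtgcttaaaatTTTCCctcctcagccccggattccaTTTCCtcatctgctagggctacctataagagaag

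Xcl1: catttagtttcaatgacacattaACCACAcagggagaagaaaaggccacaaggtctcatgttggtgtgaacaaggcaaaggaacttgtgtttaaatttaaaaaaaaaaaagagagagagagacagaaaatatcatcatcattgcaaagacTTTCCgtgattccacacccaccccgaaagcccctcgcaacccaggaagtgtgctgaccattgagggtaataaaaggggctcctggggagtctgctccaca

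Cxcr6: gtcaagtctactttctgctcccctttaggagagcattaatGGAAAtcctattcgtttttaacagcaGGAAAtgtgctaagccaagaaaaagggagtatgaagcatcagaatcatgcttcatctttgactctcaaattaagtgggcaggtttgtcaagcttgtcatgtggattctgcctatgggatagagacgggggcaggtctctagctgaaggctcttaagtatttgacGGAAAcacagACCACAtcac

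*Ccl3*, *Ccl4*, and *Xcl1* fell within 4 hr of IL-2 in WT cells, and *Ccl3* and *Xcl1* then rose above their level at 0 hr. In *Stat5a* WT cells *Ccl3* stood at 12, 15.4, and 7.74 RPKM before culture, at 2.57, 3.27, and 1.55 after 4 hr, at 19.6, 28.8, and 55.3 after 24 hr, and at 39.7, 38.5, and 51.9 after 48 hr. In *Stat5b* WT cells the 3 libraries gave 8.99, 10.9, and 9.19 RPKM at 0 hr, 1.48, 2.57, and 2.43 at 4 hr, 70, 80.8, and 37.7 at 24 hr, and 51.3, 41.5, and 44 at 48 hr. No library at 4 hr overlapped those before culture, and none at 24 or 48 hr did so either. Against 0 hr, *Ccl3* was 4.56-fold lower at 4 hr in *Stat5a* WT cells (log2 fold change of −2.19 ± 0.34, SE) and 5.08-fold lower in *Stat5b* WT cells (−2.34 ± 0.34). It was 2.62-fold and 5.71-fold higher at 24 hr, and 3.21-fold and 4.17-fold higher at 48 hr. Without replicate 3 of *Stat5a* WT at 24 hr, the first of these rises had a log2 fold change of 0.90 and was not called, a call being an adjusted p of at most 0.05 with a fold change of at least 2.

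*Ccl4* fell as far at 4 hr and did not pass the 2-fold limit afterwards in the main fit (edgeR on 47 libraries). It stood at 15.7, 18.6, and 19.2 RPKM in *Stat5a* WT cells before culture and at 3.77, 1.88, and 3 after 4 hr, and at 26.7, 32.8, and 28.9 and then 4.27, 4.7, and 4.18 in *Stat5b* WT cells. The fall was 6.1-fold and 7.57-fold. At 48 hr *Ccl4* read 36, 35.8, and 40.4 RPKM in *Stat5a* WT cells and 42.8, 35.2, and 36.5 in *Stat5b* WT cells, with log2 fold changes of 0.86 (adjusted p = 0.00038) and 0.20 (adjusted p = 0.39) against 0 hr. At 24 hr the changes were 0.71 and 0.94, and the latter became 1.08 and was called without replicate 2 of *Stat5b* WT at 0 hr, and 1.19 without replicate 3 of *Stat5b* WT at 24 hr. By limma on log2(RPKM + 1), *Ccl4* was called at 48 hr in *Stat5a* WT (1.03) and at 24 hr in *Stat5b* WT cells (1.07).

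*Xcl1* had the highest level per length of the 3 after 24 hr. Its RPKM was 33.1, 39.4, and 29.8 before culture, 10.1, 10.9, and 8.02 at 4 hr, 104.0, 152.5, and 228.5 at 24 hr, and 176.7, 184.4, and 180.7 at 48 hr in *Stat5a* WT cells. In *Stat5b* WT cells it was 39.9, 43.9, and 41.2, then 10.1, 12, and 10.3, then 306.1, 334.8, and 168.7, and then 181.4, 143.4, and 142.9. At each later time every library lay apart from those at 0 hr in both lines. The log2 fold changes were −1.76 and −2.12 at 4 hr, 2.08 and 2.51 at 24 hr, and 2.2 and 1.73 at 48 hr in the *Stat5a* and the *Stat5b* line.

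*Ccl5*, with the highest level of the 9 genes at 0 hr, went the other way. Before culture it stood at 218.7, 240.7, and 345.1 RPKM in *Stat5a* WT cells and at 512.8, 843.8, and 541.2 RPKM in *Stat5b* WT cells. At 48 hr it read 72.4, 73.6, and 106.5 RPKM and 111.9, 133.5, and 104.3 RPKM, below every library at 0 hr of the same line. It was 3.67-fold lower at 48 hr in the *Stat5a* line (log2 fold change of −1.88 ± 0.28) and 6.11-fold lower in the *Stat5b* line (−2.61 ± 0.29). It was also lower at 24 hr in both lines, by 3.21-fold and 3.77-fold, and at 4 hr its log2 fold changes of −0.97 and −0.76 stayed short of 2-fold. The former was called without replicate 1 (−1.09) or 2 (−1.03) of *Stat5a* WT at 0 hr, or without replicate 3 of *Stat5a* WT at 4 hr (−1.27).

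**Figure D1:**
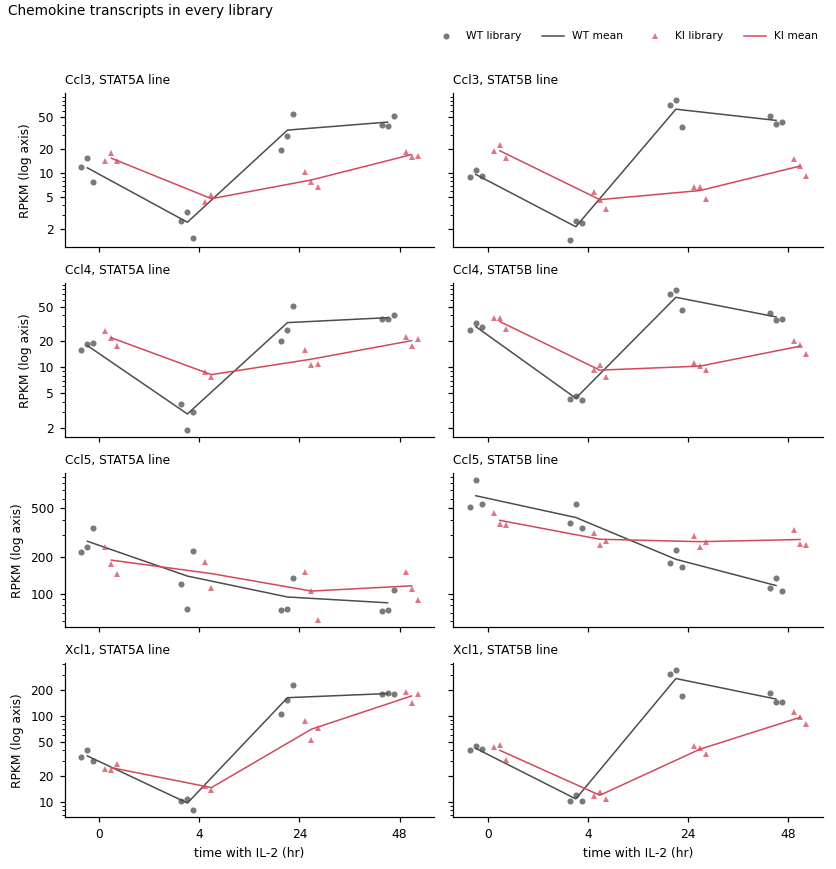
RPKM of the 4 chemokine transcripts (log axis) against the time with IL-2 in hr, for the *Stat5a* line (left) and the *Stat5b* line (right). Each point is a library, grey circles for WT and red triangles for KI, and lines join group means. In WT cells *Ccl3* reaches 62.8 RPKM at 24 hr in the *Stat5b* line, while the KI mean there is 6.1 RPKM.

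Of the receptors, *Cxcr3*, *Cxcr6*, and *Ccr2* rose with IL-2 and *Cxcr4* and *Ccr8* fell. *Cxcr3* stood at 6.53, 8.27, and 11 RPKM in *Stat5a* WT cells before culture and at 48.1, 57.3, and 55.7 after 48 hr, and at 14.2, 18, and 15.6 and then 62.6, 60.7, and 61.6 in *Stat5b* WT cells. The rise was 5.39-fold and 3.44-fold at 48 hr, and was called at 4 hr (log2 fold changes of 1.11 and 1.09) and 24 hr (1.74 and 1.38) too. The call at 4 hr was lost without replicate 1 of *Stat5a* WT at 0 hr (0.94), replicate 3 of *Stat5a* WT at 4 hr (0.97), or replicate 2 of *Stat5b* WT at 4 hr (0.99).

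*Cxcr6* rose from 3.97, 3.64, and 5.86 RPKM to 22.4, 19.9, and 22.4 at 24 hr in *Stat5a* WT cells, and from 5.89, 5.76, and 5.29 to 28.8, 22.3, and 34.7 in *Stat5b* WT cells. At 48 hr it read 20, 18.3, and 19.5 and 22.6, 20.7, and 24.3 RPKM. The rise at 48 hr was 3.71-fold and 3.53-fold. At 4 hr its log2 fold changes were 0.60 and 0.96, of which the latter was called without replicate 1 of *Stat5b* WT at 0 hr (1.03) or replicate 2 of *Stat5b* WT at 4 hr (1.10).

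*Ccr2* was the latest to rise. In *Stat5a* WT cells it stood at 1.91, 2.5, and 3.28 RPKM before culture, at 3.91, 4.5, and 4.7 at 24 hr, and at 12.3, 16.2, and 16.8 at 48 hr. In *Stat5b* WT cells it read 3.46, 3.6, and 3.83, then 6.12, 6.69, and 8.33, and then 19.6, 19.8, and 19.1 RPKM. The rise passed 2-fold only at 48 hr, at 5.08-fold and 4.76-fold, after log2 fold changes of 0.60 and 0.77 at 24 hr.

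*Cxcr4* stood at 113.1, 132.5, and 62.7 RPKM in *Stat5a* WT cells and at 76.3, 74.1, and 77 RPKM in *Stat5b* WT cells before culture. At 48 hr it read 20.1, 19.2, and 18.1 and 18.2, 19.9, and 19 RPKM. It was 6.22-fold lower in the *Stat5a* line (log2 fold change of −2.64 ± 0.15) and 4.5-fold lower in the *Stat5b* line (−2.17 ± 0.15). At 4 hr it was lower by 2.29-fold in *Stat5a* WT cells, a call that was lost without replicate 2 at 0 hr (log2 fold change of −0.96), and stood at −0.48 on that scale in *Stat5b* WT cells.

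*Ccr8* had the lowest level of the 9. Its 3 libraries held 72, 60, and 43 reads in *Stat5a* WT cells before culture and 2, 1, and 3 reads at 48 hr, and 43, 41, and 55 and then 2, 4, and 4 reads in *Stat5b* WT cells. The level per read on transcripts was 32 times higher at 0 hr than at 48 hr in the *Stat5a* line (95% exact interval of 14.4 to 88.4, for counting error only) and 16.9 times higher in the *Stat5b* line (8.94 to 36.1). Its fall was called at each time in both lines, with log2 fold changes of −1.45 and −1.35 at 4 hr and −2.89 and −3.15 at 24 hr.

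Counted over the 9 genes, 1 was called higher and 5 lower at 4 hr in *Stat5a* WT cells, where 10.0% of the 15566 genes tested were called higher and 11.4% lower. In *Stat5b* WT cells 1 was higher and 4 lower, against 5.83% and 9.89% of all genes. At 24 hr 4 were higher and 3 lower in both lines, against 8.72% higher and 14.2% lower of all genes for *Stat5a* WT and 9.07% and 13.5% for *Stat5b* WT. At 48 hr 5 were higher and 3 lower in both, against 14.3% and 22.3% for *Stat5a* WT and 14.6% and 20.7% for *Stat5b* WT. By limma on log2(RPKM + 1), the balance of all calls at 48 hr turned from 39% higher to 73.4% higher in *Stat5a* WT and from 41.4% to 71.2% in *Stat5b* WT cells. Limma was fitted to genes with at least 1 RPKM in 3 or more libraries, a set other than the 15566 genes. The 9 genes were picked with earlier results of these data known. The comparisons within a line share the WT libraries at 0 hr.

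**Figure D2:**
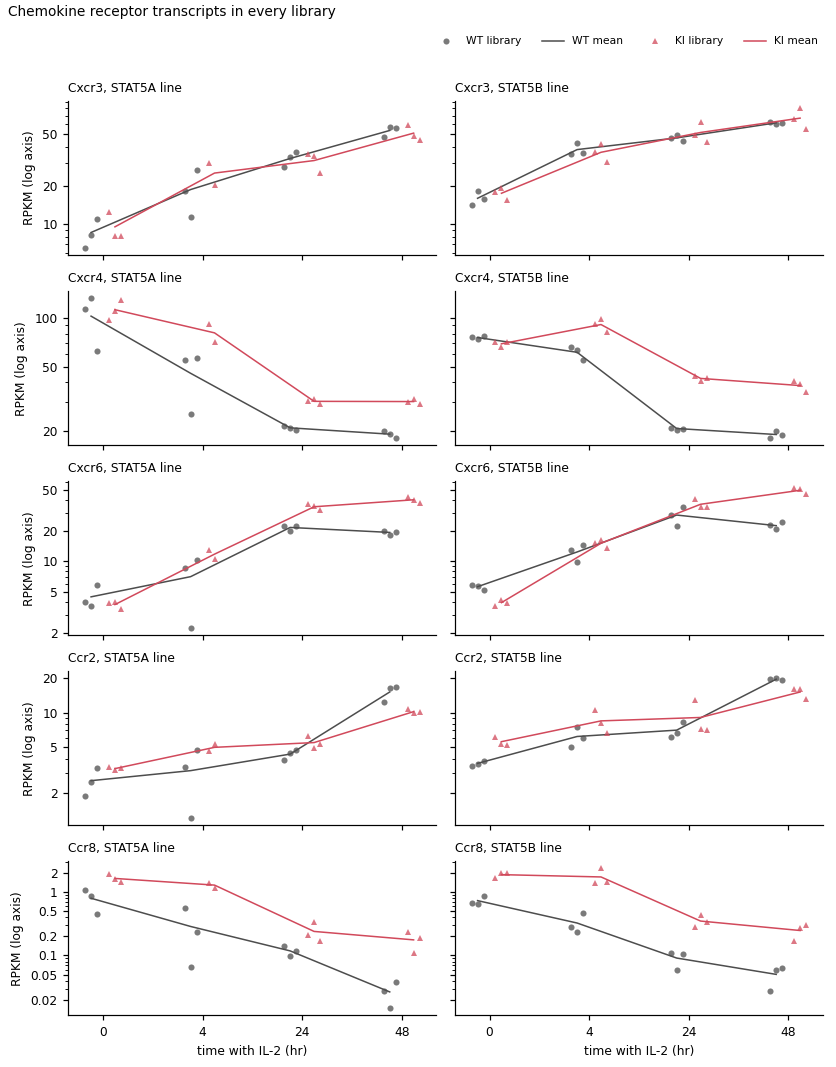
RPKM of the 5 receptor transcripts (log axis) against the time with IL-2 in hr, drawn as for the chemokines, with a point for each library and lines through group means. The *Cxcr3* points of WT and KI cells overlap at every time in both lines. *Cxcr6* at 48 hr and *Ccr8* at every time are higher in all KI than in all WT libraries of both lines.

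KI libraries held more RNA of B cells, monocytes and macrophages, and dendritic cells than WT libraries. The 6 B cell markers, of which *Cd79a* is the most abundant, summed to 113.7 ± 54.4 RPKM (SD, n = 3) in *Stat5a* WT and 254.5 ± 26.3 in *Stat5a* KI cells at 0 hr, and to 25.8 ± 12.5 and 103.1 ± 8.29 at 48 hr. They summed in the *Stat5b* line to 52.7 ± 4.56 and 207.3 ± 3.1 at 0 hr and to 11.5 ± 1.16 and 118.4 ± 3.41 at 48 hr. The 8 markers of monocytes and macrophages, led by *Lyz2*, summed to 46.2 ± 12.7 and 97.5 ± 26 RPKM at 0 hr and 5.48 ± 2.22 and 33.4 ± 20.5 at 48 hr in the *Stat5a* line, and to 34.9 ± 3.87 and 138.9 ± 28.1 and then 3.65 ± 0.711 and 70.7 ± 16 in the *Stat5b* line. Dendritic cell markers, led by *Siglech*, summed to 2.59 ± 0.773 RPKM in *Stat5a* WT and 7.67 ± 2.37 in *Stat5a* KI cells and to 1.87 ± 0.337 and 12.4 ± 1.17 in the *Stat5b* line at 48 hr. All 6 B cell markers were called higher in KI cells at 24 and 48 hr in both lines, and 6 of 8 monocyte and macrophage markers at 48 hr in the *Stat5a* line, where the *Stat5b* line had 8 of 8. Of all genes 3.21% were called higher at 24 hr and 6.35% at 48 hr in the *Stat5a* line. These shares were 10.9% and 16.5% in the *Stat5b* line.

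The markers of CD8+ T cells that have a memory phenotype, *Cd44*, *Il2rb*, *Eomes*, and *Ly6c2*, went the other way. They summed to 909.4 ± 105.3 RPKM in *Stat5a* WT and 531.4 ± 42.6 in *Stat5a* KI cells at 48 hr, and to 1050 ± 12.3 and 435.6 ± 65.1 in the *Stat5b* line. At 24 hr the sums were 562.4 ± 65.8 and 360.2 ± 34.5, and 754.3 ± 40.4 and 293.7 ± 16.2. Before culture the sums were 310.9 ± 30.6 and 234.3 ± 14.9 RPKM, and 411.9 ± 35.3 and 267.2 ± 21. In WT cells the sums thus rose by 24 and 48 hr, and the paper lists *Il2rb* among the targets of STAT5. At those times the sums therefore do not count memory cells alone. NK cell markers, led by *Klrb1c*, were lower in *Stat5b* KI than in *Stat5b* WT libraries at 0 hr (5.64 ± 0.974 RPKM in WT and 2.43 ± 0.431 in KI cells) and 24 hr (7.72 ± 1.22 and 4.85 ± 1.48) and higher at 48 hr (12 ± 1.61 and 16.7 ± 1.75), with no overlap. In the *Stat5a* line they summed to 4.86 ± 0.62 and 3.63 ± 0.551 RPKM at 0 hr, 7.84 ± 1.56 and 7.49 ± 0.257 at 24 hr, and 16.7 ± 2.83 and 20.3 ± 1.49 at 48 hr. Of genes that naive T cells are known for, *Lef1*, *Tcf7*, and *Il7r* had log2 fold changes of 0.70, 0.89, and 0.82 in *Stat5a* KI against WT cells at 48 hr, short of 2-fold, and of 1.06, 1.24, and 2.05 in the *Stat5b* line, where all 3 were higher. These changes are for 48 hr only. At 0 hr the summed naive T cell markers were lower in every KI than in every WT library of both lines. The 5 CD8 T cell markers also differed between genotypes at 0, 24, and 48 hr. At 48 hr they summed to 1107 ± 67 RPKM in *Stat5a* WT and 1567 ± 82.8 in *Stat5a* KI cells. The sums were 1044 ± 16.5 and 1579 ± 84.7 RPKM in the *Stat5b* line. At 0 hr they were 1015 ± 129.4 and 854.7 ± 23.5 RPKM, and 1244 ± 75.5 and 986.4 ± 31.2. At 24 hr they were 1270 ± 98.1 and 1539 ± 43.7 RPKM, and 1318 ± 38.2 and 1445 ± 67.6. No marker list had a gene at 0 in every library. The part of these cell types in the differences described next was not tested.

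**Figure D3:**
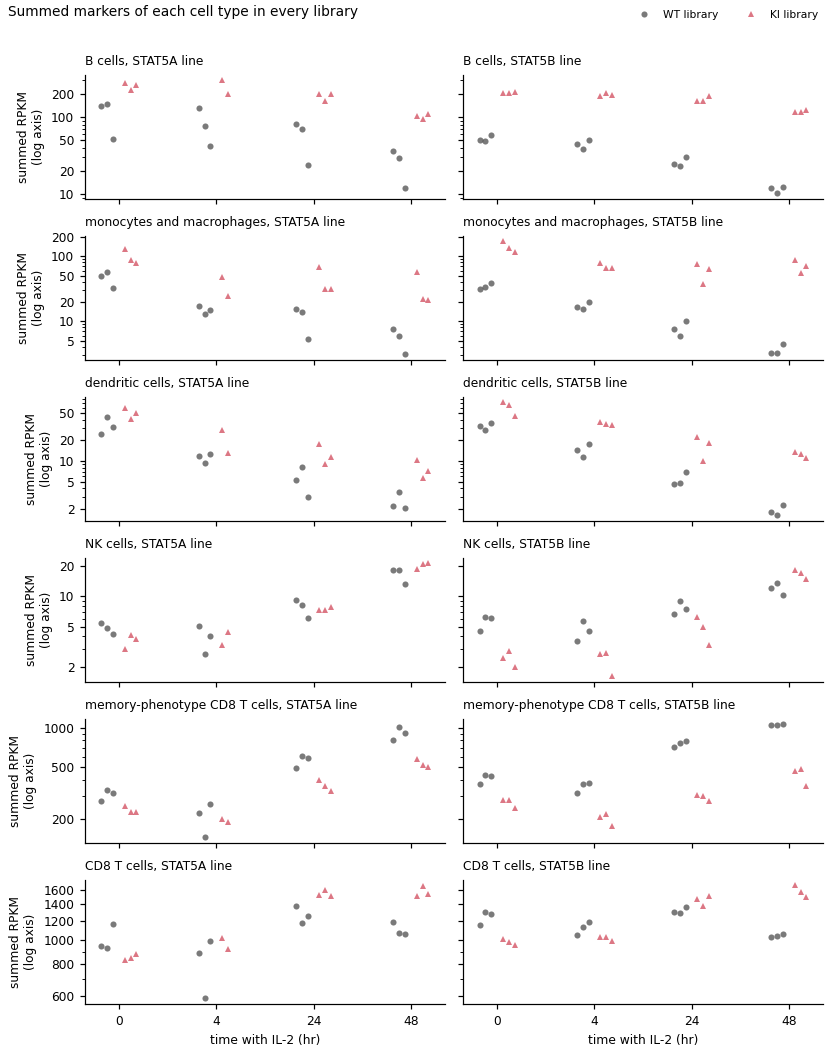
Summed RPKM of the markers of 6 cell types (log axis) against the time with IL-2 in hr, for both lines, with a point for each library (grey circles WT, red triangles KI). B cell markers at 48 hr sum to 10.2 to 12.3 RPKM in *Stat5b* WT and 115.1 to 121.9 RPKM in *Stat5b* KI libraries, and memory-phenotype markers are lower in all KI than in all WT libraries at each time except 4 hr in the *Stat5a* line.

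Before culture 1 of the 9 genes passed both limits between genotypes, in 1 line. None of the 9 genes was called in the *Stat5a* line by edgeR's quasi-likelihood test (2 of 9 had an unadjusted p under 0.05), where 0.861% of all genes were called higher and 0.180% lower in KI cells. *Ccr8* came closest, at 1.07, 0.872, and 0.444 RPKM in WT and 1.89, 1.57, and 1.42 RPKM in KI cells, which do not overlap (log2 fold change of 1.02 ± 0.33, adjusted p = 0.074). DESeq2 called it, with an adjusted p of 0.045. Only *Ccr8* of the 9 was called in the *Stat5b* line, with 0.672, 0.641, and 0.876 RPKM in WT and 1.67, 1.97, and 1.98 RPKM in KI cells (log2 fold change of 1.30 ± 0.33, adjusted p = 0.0036), against 7.38% of all genes called higher and 0.604% lower. Short of 2-fold there, *Ccr2* had a log2 fold change of 0.56 (adjusted p = 0.047), *Cxcr6* of −0.58 (adjusted p = 0.029), and *Ccl5* of −0.73 (adjusted p = 0.048). *Ccl3* had one of 0.92 (adjusted p = 0.027), which became 1.01 and was called without replicate 3 of *Stat5b* KI.

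At 4 hr *Ccl4* and *Ccr8* were higher in *Stat5a* KI cells, against 2.47% of all genes called higher and 4.16% lower. Of the calls of all genes 37.2% were higher, against 94.4% by limma on log2(RPKM + 1). *Ccl4* read 8.7 and 7.73 RPKM in the 2 KI libraries and 3.77, 1.88, and 3 in the 3 WT libraries (log2 fold change of 1.24 ± 0.26). *Ccr8* read 1.39 and 1.17 RPKM in KI and 0.557, 0.067, and 0.233 in WT cells (1.9 ± 0.38). This is the comparison with the fewest libraries. Neither gene was called in a fit of these 2 groups alone (adjusted p = 0.73 for both), where no gene was called, and the call of *Ccl4* was lost without replicate 1 of *Stat5a* KI (1.19, adjusted p = 0.061). Over all genes 54 were called without that library and 430 without replicate 2 of *Stat5a* WT, against 1032 with both.

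In *Stat5b* KI cells at 4 hr *Ccr8* and *Ccl3* were higher, against 9.20% of all genes called higher and 1.23% lower. *Ccr8* read 0.282, 0.231, and 0.459 RPKM in WT and 1.38, 2.34, and 1.43 RPKM in KI cells (log2 fold change of 2.30 ± 0.35). *Ccl3* read 1.48, 2.57, and 2.43 RPKM in WT and 5.77, 4.69, and 3.64 RPKM in KI cells (1.01 ± 0.35). Its call was lost without replicate 1 of *Stat5b* KI (0.88) or replicate 1 of *Stat5b* WT (0.82). *Ccl4* had a log2 fold change of 0.96 and was called without replicate 3 of *Stat5b* KI (1.07) or replicate 2 of *Stat5b* WT (1.02).

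At 24 hr *Ccl3*, *Ccl4*, and *Xcl1* each had lower counts in KI cells, in both lines. In the *Stat5a* line *Ccl3* read 19.6, 28.8, and 55.3 RPKM in WT and 10.3, 7.7, and 6.76 RPKM in KI cells, *Ccl4* read 20.2, 26.7, and 51.7 and 15.8, 10.6, and 10.9, and *Xcl1* read 104.0, 152.5, and 228.5 and 85.8, 52.2, and 71. The WT and KI libraries did not overlap for any of them. *Ccl3* was 4.38-fold lower in KI cells (log2 fold change of −2.13 ± 0.31), *Ccl4* 2.77-fold (−1.47 ± 0.21), and *Xcl1* 2.43-fold (−1.28 ± 0.22), and no member was called higher. All genes were called lower at 1.24% and higher at 3.21%. Replicate 3 of *Stat5a* WT was the highest in each case, and without it *Xcl1* was not called (−0.98).

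The same 3 chemokine transcripts were lower in the *Stat5b* line at 24 hr. *Ccl3* read 70, 80.8, and 37.7 RPKM in WT and 6.81, 6.72, and 4.77 RPKM in KI cells, *Ccl4* read 69.8, 77.3, and 46.2 and 11.2, 10.2, and 9.37, and *Xcl1* read 306.1, 334.8, and 168.7 and 44.4, 42.3, and 35.8. *Ccl3* was 10.5-fold lower in KI cells (log2 fold change of −3.39 ± 0.33), *Ccl4* 6.39-fold (−2.68 ± 0.22), and *Xcl1* 6.74-fold (−2.75 ± 0.23). The difference between the lines was not tested at this time. *Cxcl9* and *Cxcl10*, the ligands of CXCR3, were lower as well, at log2 fold changes of −2.39 and −2.12 in *Stat5b* KI and −1.34 and −1.54 in *Stat5a* KI cells. *Ccr8* was higher, at 0.11, 0.059, and 0.104 RPKM in WT and 0.277, 0.435, and 0.333 in KI cells (1.88 ± 0.43), and so was *Cxcr4*, at 21, 20.4, and 20.7 and 43.5, 41, and 42.5 RPKM. *Cxcr4* lay at the 2-fold limit (1.00 ± 0.14), and its call was lost without replicate 2 of *Stat5b* WT or replicate 1 of *Stat5b* KI, with 0.99 in both cases. Of all genes 10.9% were called higher and 5.77% lower, and 65.4% of these calls were higher, against 35.2% by limma on log2(RPKM + 1).

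At 48 hr *Ccl3* remained lower in KI cells. In the *Stat5a* line it read 39.7, 38.5, and 51.9 RPKM in WT and 18.6, 16.1, and 16.5 RPKM in KI cells, which is 2.64-fold lower (log2 fold change of −1.40 ± 0.30). In the *Stat5b* line it read 51.3, 41.5, and 44 and 15, 12.4, and 9.37 RPKM, which is 3.94-fold lower (−1.98 ± 0.31). *Ccl4* read 36, 35.8, and 40.4 RPKM in *Stat5a* WT and 22.2, 17.7, and 21.1 RPKM in *Stat5a* KI cells, with no overlap and a log2 fold change of −0.93. It was called without replicate 2 of *Stat5a* WT (−1.02) or replicate 1 (−1.03) or 3 (−1.02) of *Stat5a* KI. *Ccl4* in the *Stat5b* line read 42.8, 35.2, and 36.5 and 20, 18, and 14.3 RPKM and was 2.31-fold lower (−1.21 ± 0.21). For *Xcl1* the WT and KI libraries overlapped in the *Stat5a* line, at 176.7, 184.4, and 180.7 and 188.8, 139.4, and 179.9 RPKM (−0.15 ± 0.22). *Xcl1* in the *Stat5b* line read 181.4, 143.4, and 142.9 and 109.2, 97.1, and 80.3 RPKM (−0.79 ± 0.22, adjusted p = 0.0022), short of 2-fold.

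*Ccl5* was higher in *Stat5b* KI cells at 48 hr, at 329.1, 253.7, and 248.9 RPKM against 111.9, 133.5, and 104.3 RPKM in WT cells (log2 fold change of 1.17 ± 0.28). In the *Stat5a* line it read 150.2, 109.1, and 88.2 RPKM in KI and 72.4, 73.6, and 106.5 RPKM in WT cells, which overlap (0.40 ± 0.27, adjusted p = 0.24). Its direction in the *Stat5b* line turned with time, since it averaged 397.9 RPKM in KI and 632.6 RPKM in WT cells at 0 hr (−0.73 ± 0.27, adjusted p = 0.048) and 278.5 and 419.6 RPKM at 4 hr (−0.71 ± 0.27, adjusted p = 0.049), with KI below WT in every library and the change short of 2-fold. Memory CD8+ T cells are known for *Ccl5*, and the memory-phenotype markers of *Stat5b* KI libraries were lower at 0, 4, 24, and 48 hr. These markers also changed with IL-2 in WT cells, and the part of memory cells in the level of *Ccl5* was not tested.

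*Cxcr6* and *Ccr8* were higher in KI cells of both lines at 48 hr. *Cxcr6* read 20, 18.3, and 19.5 RPKM in *Stat5a* WT and 42.9, 40.3, and 37.8 RPKM in *Stat5a* KI cells, and 22.6, 20.7, and 24.3 and then 52.3, 51.6, and 46.3 RPKM in the *Stat5b* line. Every KI library was above every WT library. The log2 fold changes of 1.01 ± 0.18 and 1.07 ± 0.18 lay at the 2-fold limit. The call was lost in the *Stat5a* line without replicate 2 (0.93) or 3 (0.98) of WT or replicate 1 (0.94) or 2 (0.95) of KI, and in the *Stat5b* line without replicate 2 of WT (0.97). In all these fits the adjusted p was below 0.05. *Ccr8* held 6 reads in *Stat5a* WT and 37 in *Stat5a* KI libraries in sum, a ratio of 6.66 per read on transcripts (95% exact interval of 2.79 to 19.3), and 10 and 46 reads in the *Stat5b* line, a ratio of 5.55 (2.76 to 12.3). Its fitted log2 fold changes were 2.55 ± 0.55 and 2.20 ± 0.49. The 4 CD4 T cell markers, a class that holds regulatory T cells, were higher in the same KI libraries. Led by *Cd4*, they summed to 4.98 ± 0.412 RPKM in WT and 12.9 ± 0.361 in KI cells of the *Stat5a* line at 48 hr, and to 3.76 ± 0.321 and 17.4 ± 0.289 RPKM in the *Stat5b* line. At 0 hr these sums were 16 ± 4.2 and 27.5 ± 0.954 RPKM, and 12 ± 1.46 and 26.7 ± 4.34 RPKM. Their part in the level of *Ccr8* was not tested.

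The fitted changes of the other 3 receptors were short of 2-fold at 48 hr. *Cxcr4* read 20.1, 19.2, and 18.1 RPKM in *Stat5a* WT and 30.3, 31.4, and 29.5 in *Stat5a* KI cells (log2 fold change of 0.62 ± 0.14), and 18.2, 19.9, and 19 and 40.5, 39.2, and 34.9 RPKM in the *Stat5b* line (0.93 ± 0.14, where the ratio of the mean RPKM was 2.01). The libraries did not overlap and both adjusted p were below 0.05. *Ccr2* read 12.3, 16.2, and 16.8 and 10.7, 9.86, and 10.1 RPKM in the *Stat5a* line (−0.61 ± 0.20, adjusted p = 0.013) and 19.6, 19.8, and 19.1 and 16.1, 16.1, and 13.1 RPKM in the *Stat5b* line (−0.45 ± 0.20, adjusted p = 0.051). *Ccr2* is known on monocytes, whose summed markers were higher in the KI libraries, and their part in the level of *Ccr2* was not tested. *Cxcr3* read 48.1, 57.3, and 55.7 and 59.3, 48.6, and 45.5 RPKM in the *Stat5a* line (−0.12 ± 0.18), and 62.6, 60.7, and 61.6 and 65.5, 79.9, and 55.4 RPKM in the *Stat5b* line (0.04 ± 0.17). The WT and KI libraries of *Cxcr3* overlapped at every time in both lines.

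In counts, 1 of the 9 genes was lower and 2 were higher in *Stat5a* KI cells at 48 hr, where 2.43% of all genes were called lower and 6.35% higher. In *Stat5b* KI cells 2 were lower and 3 higher, where 9.81% were called lower and 16.5% higher. By limma on log2(RPKM + 1), the balance of all calls turned from 62.7% to 41.1% higher in the *Stat5b* line, and was 57.6% in place of 72.3% in the *Stat5a* line. The shares of the main fit and of limma cover different sets of genes. The comparisons between KI and WT cells at 48 hr and those between 48 and 0 hr in WT cells share the WT libraries at 48 hr.

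**Figure D4:**
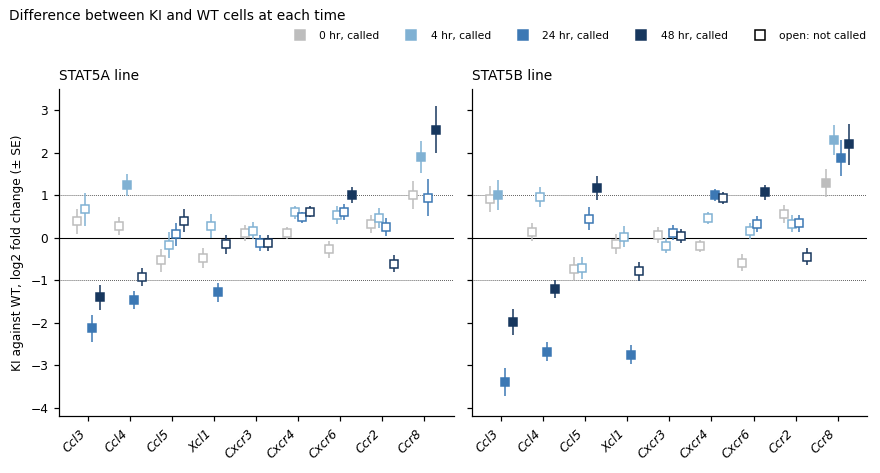
Log2 fold change of KI against WT cells for the 9 genes at the 4 times, with the SE of the fit as bars, for the *Stat5a* line (left) and the *Stat5b* line (right). Filled squares were called, open squares were not, and dotted lines mark 2-fold. *Ccl3* goes from 0.92 at 0 hr to −3.39 at 24 hr in the *Stat5b* line, and *Ccr8* is above 0 at every time in both lines.

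Whether the response, taken as the change from 0 to 48 hr, differed was tested as that change in KI cells less that in WT cells. This difference cannot tell IL-2 from time in culture. The markers of other cell types also changed over this time, and their part was not tested. In the *Stat5a* line the mean of *Ccl3* went from 11.7 to 43.4 RPKM in WT and from 15.4 to 17.1 RPKM in KI cells, a difference of responses of −1.79 ± 0.43 (log2). *Ccl4* went from 17.8 to 37.4 and from 21.9 to 20.3 RPKM (−1.21 ± 0.29), and *Cxcr6* from 4.49 to 19.3 and from 3.77 to 40.4 RPKM (1.29 ± 0.27). These 3 of the 9 were called, against 6.25% of all genes in either direction. *Ccr2*, at −0.94, was called without replicate 3 of *Stat5a* WT at 0 hr (−1.18) or replicate 1 of *Stat5a* WT at 48 hr (−1.06). *Ccl5*, at 0.93, was called without replicate 1 of *Stat5a* KI at 0 hr (1.15) or replicate 3 of *Stat5a* WT at 48 hr (1.11). *Ccr8*, at 1.53 with an adjusted p of 0.075, was called without replicate 3 of *Stat5a* WT at 0 hr (1.81) or replicate 2 of *Stat5a* KI at 48 hr (1.74).

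In the *Stat5b* line 6 of the 9 genes were called, against 21.4% of all genes. *Ccl3* went from 9.69 to 45.6 RPKM in WT and from 19.1 to 12.3 RPKM in KI cells (−2.89 ± 0.43), and *Ccl4* from 29.5 to 38.2 and from 33.8 to 17.5 RPKM (−1.35 ± 0.29). *Ccl5* fell in WT cells from 632.6 to 116.5 RPKM, and its means in KI cells were 397.9 and 277.2 RPKM (1.90 ± 0.39). *Cxcr4* went from 75.8 to 19 and from 69.3 to 38.2 RPKM (1.12 ± 0.20), and *Cxcr6* from 5.65 to 22.5 and from 3.94 to 50.1 RPKM (1.66 ± 0.27). *Ccr2* went from 3.63 to 19.5 and from 5.6 to 15.1 RPKM (−1.01 ± 0.29), a call lost without replicate 1 of *Stat5b* KI at 0 hr (−0.93) or replicate 3 of *Stat5b* KI at 48 hr (−0.96). That call was also lost by limma on log2(RPKM + 1) (−0.86) or log2(RPKM + 0.1) (−0.98), and with the groups compared alone (−0.98). *Cxcr3* rose in WT cells and its responses did not differ beyond their error, at −0.24 ± 0.25 in the *Stat5a* and −0.03 ± 0.25 in the *Stat5b* line.

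The KI effects at 48 hr were also set against each other between the lines. None of the 9 was called by edgeR's quasi-likelihood test, none by DESeq2, and 2.06% of all genes were called by the former. These were 321 genes, and 175 to 375 with single libraries left out. With all 48 libraries 86 genes were called, and 626 in a fit of the groups compared alone. *Xcl1*, the only 1 of the 9 with an unadjusted p under 0.05, had −0.64 ± 0.31 (adjusted p = 0.19), *Ccl5* had 0.77 ± 0.39 (adjusted p = 0.21), and *Cxcr6* had 0.06 ± 0.26. The calls of *Ccl4* and *Ccl5* in *Stat5b* KI but not *Stat5a* KI cells therefore do not show a difference between the lines.

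Across the 8 groups of a line, the order of levels put *Ccl3* and *Ccl4* highest in WT cells at 24 and 48 hr and lowest at 4 hr. In the *Stat5b* line the mean of *Ccl3* was 62.8 RPKM in WT at 24 hr and 45.6 in WT at 48 hr, which overlap, and 19.1 in KI at 0 hr, which lies apart from both. *Ccl5* in the *Stat5a* line had each group overlapping the next, from 268.2 RPKM in WT at 0 hr to 84.1 RPKM in WT at 48 hr. *Cxcr6* was highest in KI cells at 48 hr, at 40.4 and 50.1 RPKM, apart from the next group, KI at 24 hr, in both lines. *Ccr8* was highest in KI at 0 hr, at 1.63 and 1.87 RPKM. Over the 16 groups of both lines, the 9 genes ranged 5.93-fold (*Cxcr4*) to 70-fold (*Ccr8*) between the highest and the lowest group mean. The lowest group of *Ccr8*, *Stat5a* WT at 48 hr, held 6 reads in sum.

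The genes most like each member were sought by the Pearson correlation of mean log2 CPM over the 16 groups and are given without a test. Each group mean rests on 2 or 3 libraries, and the groups of a line share the line. *Ccl3* and *Ccl4*, whose genes overlap in RefSeq, were most like each other (r = 0.946), and next to *Ccl3* came *Ifng* (0.945), the gene of interferon gamma, and next to *Ccl4* came *Msra* (0.946). *Ccl5* was nearest to *Gm11435* (0.984) and *Cela2a* (0.983), *Xcl1* to *Cdca7l* (0.970) and *Tspan4* (0.969), *Cxcr3* to *Tmem18* (0.959) and *Armc7* (0.950), and *Cxcr4* to *Map1lc3a* (0.984) and *Trim41* (0.983). *Cxcr6* was nearest to *Tspyl4* (0.971) and *Zbtb14* (0.967), *Ccr2* to *Hip1* (0.936) and *Fam64a* (0.933), and *Ccr8* to *Prkra* (0.983) and *Il1r2* (0.976).

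Of 36 other chemokine genes listed, 26 passed the filter on low counts. At 48 hr 4 of the 26 were higher and none lower in *Stat5a* KI cells, and 9 were higher and 2 lower in *Stat5b* KI cells, with median log2 fold changes of 0.63 and 1.32 beside medians of 0.04 and 0.10 over all genes, of which 6.35% and 16.5% were called higher and 2.43% and 9.81% lower. Called higher in both lines were *Cxcl16*, *Ccl6*, and *Ccl19*. *Cxcl16*, the ligand of CXCR6, read 1.22, 1.18, and 1.1 RPKM in *Stat5a* WT and 5.42, 3.56, and 3.42 RPKM in *Stat5a* KI cells (1.77), and 0.991, 0.763, and 1.26 and 5.56, 6.52, and 6.12 RPKM in the *Stat5b* line (2.52). *Ccl6* averaged 0.226 RPKM in WT and 0.862 in KI cells of the *Stat5a* line (1.88) and 0.136 and 0.671 RPKM in the *Stat5b* line (2.22), and *Ccl19* had 1 read in the *Stat5a* WT libraries and 27 in the *Stat5a* KI libraries in sum. *Ccl22*, the most abundant of the others at 9.14 RPKM over the 47 libraries, had log2 fold changes of −0.56 and −0.55. The next were *Cxcl10* (6.17 RPKM over the 47 libraries), *Cxcl9* (4.07), *Ccl9* (1.81), and *Cxcl2* (1.65), of which *Ccl9* (1.46) and *Cxcl2* (3.08) were higher in *Stat5b* KI cells. At 24 hr none of the 26 was higher and 4 were lower in *Stat5a* KI cells, and 6 were higher and 5 lower in *Stat5b* KI cells, where all genes gave 3.21% higher and 1.24% lower in the former and 10.9% and 5.77% in the latter.

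Of 19 other receptor genes 17 were tested. At 48 hr 9 were higher in KI cells of the *Stat5a* line, 10 were higher in those of the *Stat5b* line, and none was lower, with median log2 fold changes of 1.72 and 2.22 beside 0.04 and 0.10 over all genes. Of all genes 6.35% were called higher and 2.43% lower in the former and 16.5% and 9.81% in the latter. *Ccr9*, which leads T cells to the gut and thymus, was the most abundant of them, at 6.72, 6.13, and 5.67 RPKM in *Stat5a* WT and 19.1, 22.5, and 21.6 RPKM in *Stat5a* KI cells (1.72), and 4.71, 4.81, and 4.79 and 23.8, 20.6, and 25.9 RPKM in the *Stat5b* line (2.22). *Ccr6*, known on B cells, read 0.307, 0.452, and 0.274 and 1.6, 1.7, and 1.9 RPKM in the *Stat5a* line (2.29) and 0.182, 0.146, and 0.201 and 2.36, 2.36, and 2.07 RPKM in the *Stat5b* line (3.60). *Xcr1*, the receptor of XCL1 on dendritic cells, averaged 0.203 RPKM in *Stat5a* WT and 0.698 in *Stat5a* KI cells (1.73) and 0.158 and 1.12 RPKM in the *Stat5b* line (2.74). *Ccr1*, *Ccr3*, *Ackr2*, *Ackr3*, and *Cxcr1* were higher in both lines at levels below 0.5 RPKM, and *Ackr3* had 1 read in the WT libraries of each line in sum and 26 and 17 reads in KI libraries, with 22 of the 26 in replicate 1 of *Stat5a* KI. The B cell, monocyte, and dendritic cell markers were higher in the same KI libraries, and their part in these calls was not tested.

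*Ccr7* and *Ccrl2* differed by less than 2-fold. *Ccr7*, which keeps naive T cells in lymph nodes and averaged 230.5 RPKM over the 47 libraries, read 109.3, 89, and 93.2 RPKM in *Stat5a* WT and 148.2, 163.5, and 157.2 RPKM in *Stat5a* KI cells at 48 hr (log2 fold change of 0.63), and 76.8, 75.9, and 89.1 and 164.6, 145.2, and 141.3 RPKM in the *Stat5b* line (0.82). *Cxcr5* was higher in *Stat5b* KI cells (1.69) and had 0.72 in *Stat5a* KI cells, and *Ccrl2* had 0.26 in the *Stat5a* and −0.13 in the *Stat5b* line.

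**Figure D5:**
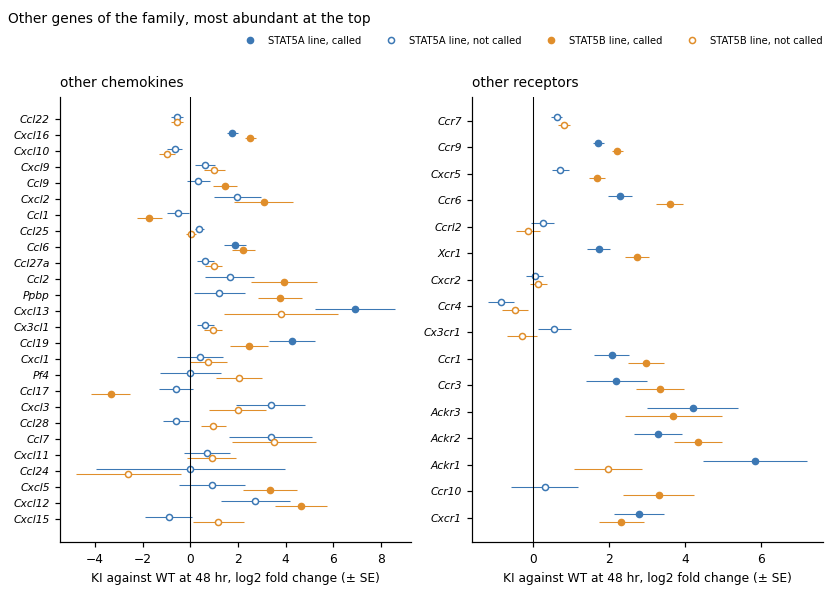
Log2 fold change of KI against WT cells at 48 hr (± SE of the fit) for 26 other chemokine genes (left) and 16 other receptor genes (right), ordered by mean RPKM with the most abundant at the top, in the *Stat5a* line (blue) and the *Stat5b* line (orange). Filled points were called. All called receptor genes lie to the right of 0, led in abundance by *Ccr9*.

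Most genes that carry the signal inside the cell differed by less than 2-fold. Of 24 such genes, all tested, 1 was higher and 1 lower in *Stat5a* KI cells at 48 hr, and 4 were higher and 1 lower in *Stat5b* KI cells, with median log2 fold changes of 0.13 and 0.15 beside 0.04 and 0.10 over all genes. The share of all genes called at 48 hr was 6.35% higher and 2.43% lower in the *Stat5a* line, and 16.5% and 9.81% for *Stat5b*. *Gnai2*, the main inhibitory G protein subunit of lymphocytes, averaged 208.6 RPKM over the 47 libraries and had log2 fold changes of 0.14 and 0.03. *Rac2* (0.24 and 0.16), *Grk2* (0.24 and 0.20), *Gnb2* (0.00 and −0.35), *Grk6* (0.24 and 0.03), and *Dock2* (0.46 and 0.43), the others of the 6 most abundant, also stayed within 2-fold. In WT cells none of the 24 was higher with IL-2 at any time, and 4 to 6 were lower in each comparison with 0 hr. Of all genes 5.83% to 14.6% were called higher in these comparisons and 9.89% to 22.3% lower.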

How the data were processed

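RNA-seq of 48 libraries of splenic CD8+ T cells was used, and 1 chromatin sample was not analysed here. The authors deposited raw read counts and RPKM for each RefSeq transcript, made from 50-base single-end reads aligned with TopHat2 2.0.11 to mm10. The counting program and its use of strand are not given in the sources used here. The submitters' processing notes also name Bowtie2 2.2.6, SAMtools 0.1.8, bedtools 2.25.0, and edgeR. Of 31682 transcripts, the longest of each of 23992 symbols was kept. Replicate 3 of *Stat5a* KI at 4 hr, with 1028515 reads, was left out.

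Counts of 47 libraries were tested with edgeR 4.0.16 (quasi-likelihood test, TMM scaling, filterByExpr with a minimum count of 10, 15566 genes) in R 4.3.3, with 1 mean per group. Calls required 2-fold or more and a p adjusted over all genes (Benjamini-Hochberg) no higher than 0.05. A count of 0 allowed up to 3 reads, which is 0.0498 to 0.173 CPM. Alternatives used DESeq2 1.42.0, its size factors, limma 3.58.1 on log2(RPKM + 1) or log2(RPKM + 0.1), no filter, a replicate block, fewer or all libraries, another transcript, no fold threshold, and each replicate left out. The limma fits kept genes with at least 1 RPKM in 3 or more libraries and had no TMM scaling. Their counts and shares of all genes are therefore over another set of genes. Replicate numbers paired the libraries, by correlations above 0.1 in all 3 pairs, only for *Stat5a* WT at 24 hr (0.206, 0.273, and 0.419) and 48 hr (0.166, 0.117, and 0.192) against 0 hr, and the block changed no call of the 9 genes there.

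The 9 genes and the gene lists were chosen with earlier results of these data known. Besides the 9, the text names the 6 most abundant genes of each list of other chemokines, receptors, and signalling genes, those called in both lines at 48 hr, the 2 genes most like each member, and the most abundant marker of each cell type. One receptor and 1 of the naive T cell markers are not reported here. *Cxcl9* and *Cxcl10* at 24 hr and the reads of *Ackr3* were singled out after their values were seen.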

Additional observations from a re-analysis of the deposited data

Results flagged for a closer look

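The change from 0 to 48 hr with IL-2 differed between KI and WT cells for 9 pairs of gene and line. The test of that difference called 6.25% of all genes for *Stat5a* and 21.4% for *Stat5b*, counting either direction. In the *Stat5a* line the KI response was lower for *Ccl3* (−1.79, log2) and *Ccl4* (−1.21) and higher for *Cxcr6* (1.29). In the *Stat5b* line it was lower for *Ccl3* (−2.89), *Ccl4* (−1.35), and *Ccr2* (−1.01) and higher for *Ccl5* (1.90), *Cxcr4* (1.12), and *Cxcr6* (1.66). The call of *Ccr2* was lost without replicate 1 of *Stat5b* KI at 0 hr (−0.93) or replicate 3 of *Stat5b* KI at 48 hr (−0.96). Limma on log2(RPKM + 1) (−0.86) or log2(RPKM + 0.1) (−0.98) and a fit of the groups compared alone (−0.98) lost it too. Groups of 3 libraries were too small for a search for single outlying libraries.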

How the results depend on the processing

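Of 2600 log2 fold changes of the 9 genes under the alternatives, 2494 kept their side of the threshold, 48 lost and 58 gained a call, and no called value changed sign. The sign differed for 31 values that were not called under either setting, by up to 0.49 in size. Without the fold threshold the number of the 9 called was 9 in place of 5 in *Stat5b* WT at 4 hr, and in KI against WT cells 5 in place of 3 (*Stat5a*, 24 hr), 6 in place of 3 (*Stat5a*, 48 hr), 5 in place of 1 (*Stat5b*, 0 hr), and 5 in place of 2 (*Stat5b*, 4 hr). In the order of those counts, 7711, 2879, 6898, 3557, and 4252 of all genes were called, in place of 2448, 692, 1367, 1242, and 1623. The replicate block gave 1 in place of 0 in the *Stat5a* line at 0 hr (*Ccr8*, 1.06) and 1 in place of 2 in the *Stat5b* line at 4 hr (*Ccl3*, 1.00), and changed no other call of the 9. DESeq2 gave 1 in place of 0 in the *Stat5a* line at 0 hr. With the groups compared alone, 0 were called in place of 2 in the *Stat5a* line at 4 hr, and *Ccr8* in *Stat5a* WT at 4 hr had an adjusted p of 0.12. By limma on log2(RPKM + 1), which understates the change of low genes, the count was 1 in place of 2 (*Stat5a*, 4 hr), 0 in place of 1 (*Stat5b*, 0 hr), 1 in place of 2 (*Stat5b*, 4 hr), and 3 in place of 5 (*Stat5b*, 24 hr), and *Ccr8* in KI against WT cells at 48 hr had 0.19 and 0.25. In the order of those counts, limma called 249, 293, 379, and 741 of all genes, in place of 1032, 1242, 1623, and 2596. *Cxcr6* in the *Stat5a* line at 48 hr had 0.96 to 0.98 with DESeq2, its size factors, no filter, all 48 libraries, or another transcript. The cause of these changes was not tested.

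With single libraries left out, the number of the 9 called for IL-2 against 0 hr ranged from 6 to 6, 6 to 7, and 8 to 8 at 4, 24, and 48 hr in *Stat5a* WT cells and from 5 to 6, 7 to 8, and 8 to 8 in *Stat5b* WT cells. For KI against WT it ranged from 0 to 0, 1 to 2, 2 to 3, and 2 to 4 at 0, 4, 24, and 48 hr in the *Stat5a* line and from 1 to 2, 1 to 3, 4 to 5, and 4 to 5 in the *Stat5b* line. For the response at 48 hr it ranged from 3 to 5 and 5 to 6, and for the difference between lines from 0 to 0. Over all genes, the *Stat5a* line had 20 to 240 calls at 0 hr (162 with all libraries, 20 without replicate 3 of WT, 26 without replicate 1 of KI) and 54 to 1645 at 4 hr (1032 with all used, 1645 without replicate 1 of WT). With the left-out library included the latter were 2668, of which 95.1% were higher, against 37.2%. By limma on log2(RPKM + 1) and log2(RPKM + 0.1), that share was 94.4% and 94.7% and the median of all genes shifted by 0.29 and 0.31. By limma on log2(RPKM + 1) the share of calls that were higher was also 65.6% in place of 38% (*Stat5a* WT, 24 hr), 70.3% in place of 40.3% (*Stat5b* WT, 24 hr), 58.8% in place of 37.1% (*Stat5b* WT, 4 hr), and 29.8% in place of 46.9% (*Stat5a* WT, 4 hr), and for KI against WT 58.3% in place of 72.1% (*Stat5a*, 24 hr). The median of all genes in WT cells against 0 hr shifted by 0.16 to 0.19 there, other than −0.07 for *Stat5a* WT at 4 hr. *Ccr8*, with 1 to 4 reads in WT libraries at 48 hr, is the gene most limited by depth.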

Other observations

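*Ccr7* and *Ccr9* were lower after IL-2 in WT cells. *Ccr7* went from 410.4 ± 101.0 RPKM (SD, n = 3) at 0 hr to 97.2 ± 10.7 at 48 hr in the *Stat5a* line and from 346.9 ± 51.1 to 80.6 ± 7.37 in the *Stat5b* line, with log2 fold changes of −2.29 and −2.28. *Ccr9* went from 25 ± 1.08 to 6.17 ± 0.523 and from 20.3 ± 1.59 to 4.77 ± 0.0505 RPKM (−2.22 and −2.27). Of the 17 other receptor genes tested, 2 were higher and 13 lower at 48 hr in *Stat5a* WT cells and 2 were higher and 12 lower in *Stat5b* WT cells. Of all genes 14.3% were called higher and 22.3% lower in the former and 14.6% and 20.7% in the latter. Of the 26 other chemokine genes, 4 were higher and 14 lower in the *Stat5a* line and 2 were higher and 11 lower in the *Stat5b* line, beside the same shares of all genes. *Cxcl16* was among the lower in both (−2.41 and −2.84).

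Erythroid markers, led by *Hbb-bs*, summed at 48 hr to 7.22 ± 0.81 RPKM in WT and 19.5 ± 2.57 in KI cells of the *Stat5a* line and to 6.2 ± 1.85 and 162.2 ± 48 RPKM in WT and KI cells of the *Stat5b* line, and all 5 were called higher in *Stat5b* KI cells, where 16.5% of all genes were. In the same order, neutrophil markers, led by *S100a9*, summed to 0.0292 ± 0.0218 and 0.252 ± 0.152 RPKM and to 0.0637 ± 0.0386 and 1.26 ± 0.727 RPKM. Markers of mast cells and basophils, led by *Ms4a2*, summed to 0.427 ± 0.011 and 0.51 ± 0.0806 RPKM and to 0.387 ± 0.104 and 0.583 ± 0.0789 RPKM.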
